A study of Rattus norvegicus with 14 samples.

Results

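The genes described here build and load the major histocompatibility complex (MHC) of the rat, called RT1. They were the array features whose gene name starts with RT1-, together with B2m, Tap1, Tap2, Tapbp, Cd74, Ciita, Psmb8, Psmb9, Psmb10, Calr, Canx and Erap1. This gave 56 genes on 68 probes, of 19801 named genes on 30367 probes on the array. No probe carried the name Nlrc5, the class I transactivator that the rule also asks for. After probes near background were left out, 53 of the 56 genes remained on 65 probes, of 17457 genes on 26391 probes. The 53 were 34 class I chains, 7 class II chains, 10 genes of class I loading and peptide supply, the class II chaperone Cd74 and the class II transactivator Ciita.

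RNA came from plantaris, a hindlimb muscle, of Wistar rats fed 1 of 3 diets. There were 6 muscles of the vitamin D depletion diet, 4 of the repletion diet and 4 of the control diet, with 1 single-colour array each. The control diet held 1000 IU of vitamin D per kg of food. The labels used here give neither the vitamin D content nor the duration of the depletion and repletion diets, nor the age or sex of the rats. They give the strain as Wistar and no RT1 haplotype. The title of depletion replicate 1 names the depletion diet, while its diet field names the repletion diet. It was kept under its title, and the results that rest on it are also given without it.

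MHC class I molecules sit on nearly all nucleated cells and show peptides from inside the cell to CD8 T cells. Their heavy chain pairs with beta-2 microglobulin (B2m). The peptides are cut by the immunoproteasome, pumped into the endoplasmic reticulum by the Tap1-Tap2 transporter, trimmed by Erap1 and loaded with the help of Tapbp, Calr and Canx. MHC class II molecules are pairs of an alpha and a beta chain and show peptides taken up from outside to CD4 T cells. They are made mainly by macrophages, dendritic cells and B cells, assemble on the invariant chain Cd74 and depend on the transactivator Ciita. Resting muscle fibres make little of either class, and interferon raises both. The RT1 region differs between rat haplotypes in sequence and in its number of class I genes.

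The arrays read each gene through 60-base probes, and several results below turn on single RT1 probes. The sequences of 6 such probes are shown because 2 probes of the same gene gave different patterns over the arrays, or because the probe set a few arrays apart. They are 5′ to 3′ as the array files give them, in lower case throughout, with positions in rn4.
RT1-Bb, probe 1 (chr20:4732187-4732246): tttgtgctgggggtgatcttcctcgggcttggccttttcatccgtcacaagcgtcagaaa
RT1-Bb, probe 2 (chr20:4730533-4730583): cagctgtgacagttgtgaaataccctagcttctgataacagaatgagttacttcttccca
RT1-Db1, probe 1 (chr20:4671516-4671575): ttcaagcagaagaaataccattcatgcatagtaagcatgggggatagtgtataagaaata
RT1-CE10, probe 1 (no position given): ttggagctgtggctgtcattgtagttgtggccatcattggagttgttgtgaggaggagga
RT1-CE10, probe 2 (chr20:3469045-3469104): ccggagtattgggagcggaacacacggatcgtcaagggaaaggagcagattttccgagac
RT1-CE16 (chr20_random:37900-37959): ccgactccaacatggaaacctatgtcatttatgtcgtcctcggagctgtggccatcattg

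RT1-Bb and RT1-Db1 are class II beta chains, and RT1-CE10 and RT1-CE16 are class I heavy chains of the C/E region. Probe 1 is the probe of higher mean level, which stands for the gene. Of all 56 RT1 probes on the array, 45 had an rn4 position on chromosome 20, 6 on chromosome 20_random and 5 none. The array annotation tied 20 of the 56 to more than 1 RefSeq transcript, so a class I value can hold signal of near-identical copies and is uncertain in that respect. The probes of Psmb8, Psmb9, Tap1, Tap2 and Tapbp also lay on chromosome 20. Those of the other partners lay elsewhere, B2m on chromosome 3, Cd74 on 18, Ciita and Canx on 10, Calr and Psmb10 on 19 and Erap1 on 2. Among the 65 kept probes, 4 pairs matched with at most 6 mismatches over an ungapped stretch of 50 bases. They were RT1-A1 (probe 2) with RT1-CE11, RT1-CE14 with RT1-Cl, RT1-CE5 (probe 1) with RT1-S2 (probe 1) and RT1-N1 with RT1-N3, all class I chains, and their values are uncertain in the same respect. Shorter shared stretches were not searched, so other class I probes can be uncertain in this respect too. The probes of RT1-CE16 and RT1-A1 (probe 2) share such a shorter stretch. Whether a probe lies in an exon or a UTR of the rn4 gene models was not analysed here.

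Promoter windows from the RefSeq tables (assembly GRCr8, 250 bases before to 50 after the start) were found for 45 of the 56 genes. Some are shown because probes of RT1-Da, RT1-Db1 and Cd74 shared their 2 lowest arrays, as described below. B2m, Tap1 and Tap2 shared their highest array. RT1-Bb is shown as well, although its probes did not share those 2 lowest arrays. The Y box of MHC promoters was searched as CTGATTGG, and the core of the interferon-stimulated response element as 2 runs of GAAA parted by any 2 bases, each on both strands. The Y box holds the CCAAT box, read on the opposite strand. The Y box letters were in 6 of 8 class II windows (75%), 11 of 27 class I windows (40.7%) and 2 of 9 class I supply windows (22.2%), against 3.5% of all 33469 windows. They stood on the strand of the gene in all 6 class II windows and on the opposite strand in all 11 class I windows. The matches of RT1-M3-1 and Psmb9 lay after the start. The response element letters were in 6 of 9 class I supply windows (66.7%), 3 of 27 class I windows (11.1%) and 0 of 8 class II windows, against 3.92% of all windows. Psmb8, Psmb9 and Canx had the same highest array as B2m, Tap1 and Tap2. Response element letters were found for Psmb8, but not for Psmb9 or Canx. They were also found for Psmb10, on which that same array was the lowest. The windows shown are thus a choice and do not tie the letters to an array pattern. A match describes the letters and is no evidence of a site in use. The stretches below hold the match in capitals.
RT1-Da (chr20:4515313-4515392, plus strand): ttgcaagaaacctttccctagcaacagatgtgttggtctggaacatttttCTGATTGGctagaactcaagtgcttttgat
RT1-Db1 (chr20:4560216-4560295, minus strand): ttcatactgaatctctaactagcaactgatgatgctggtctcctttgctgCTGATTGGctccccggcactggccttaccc
RT1-Bb (chr20:4604153-4604232, minus strand): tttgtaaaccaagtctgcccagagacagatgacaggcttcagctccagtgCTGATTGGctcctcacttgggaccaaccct
B2m (chr3:129549150-129549229, plus strand): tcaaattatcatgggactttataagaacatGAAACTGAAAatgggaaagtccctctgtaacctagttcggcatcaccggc
Tap1 (chr20:4668615-4668694, minus strand, match on the opposite strand): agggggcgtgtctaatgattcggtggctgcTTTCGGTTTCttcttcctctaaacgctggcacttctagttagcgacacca
Tap2 (chr20:4652297-4652367, minus strand): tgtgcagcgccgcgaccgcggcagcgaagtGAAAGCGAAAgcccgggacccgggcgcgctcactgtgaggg

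Levels below are log2 processed signal minus log2 of the array's 75th percentile, so a level of 0 equals that percentile. The same gene is compared between arrays, and the level of a gene is not set against that of another gene. On single arrays, 82.8% to 88.1% of non-control spots stood well above background. The arrays lay on 5 slides, and the slide entered the fit as a block, as the rule for these genes asks. Between slides, 7400 of 26391 probes differed at an adjusted p under 0.05, 11 of the 53 members among them. No probe passed an adjusted p of 0.05 for diet in any of the 3 comparisons, so no member was called. All p-values come from limma, either unadjusted or adjusted by Benjamini-Hochberg over the 26391 probes, and they measure the spread between muscles that the titles call biological replicates.

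**Figure D1:**
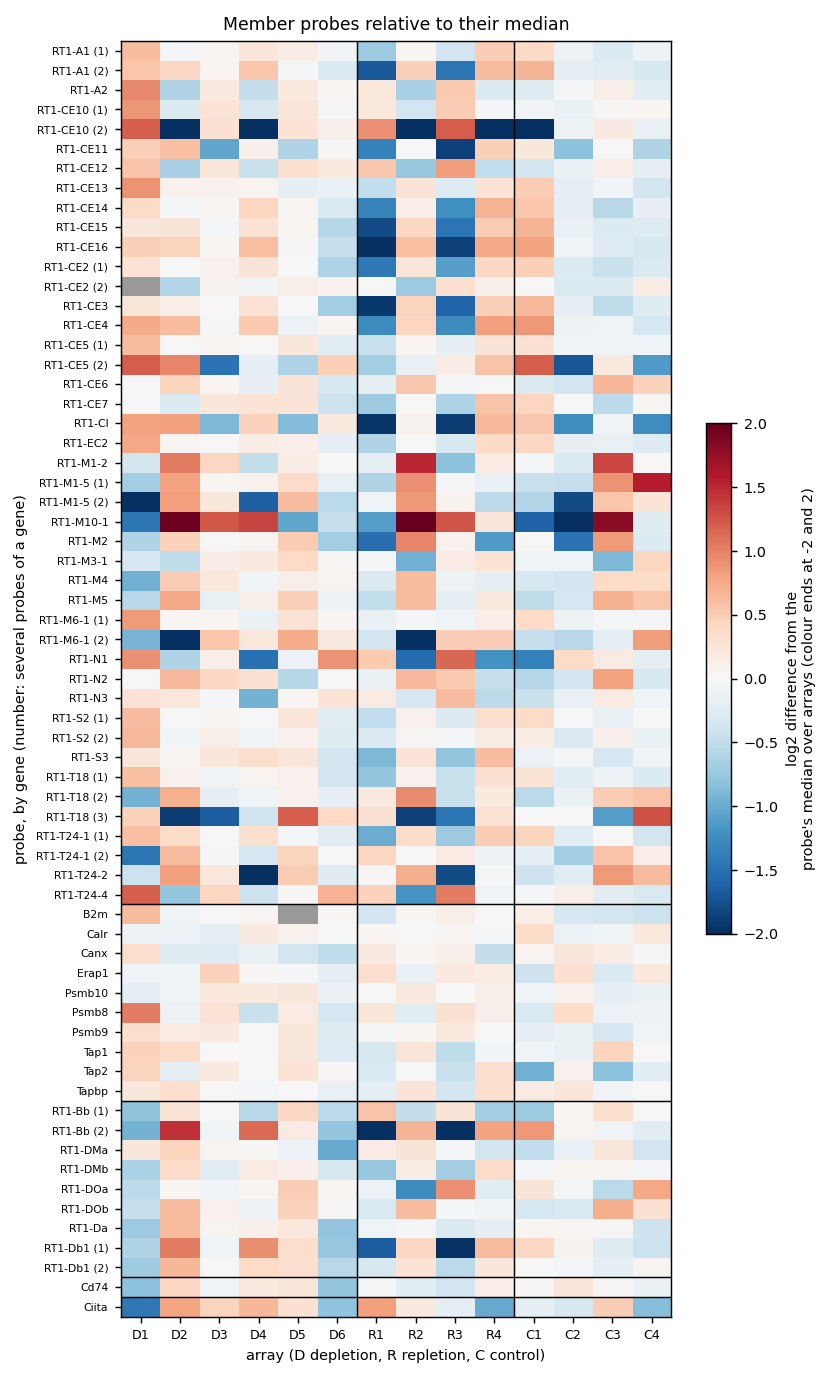
Each row is 1 of the 65 member probes and each column 1 of the 14 arrays (D depletion, R repletion, C control). Colour gives the log2 difference from the probe's median over arrays, grey marks a spot left out, and black lines part diets and classes. Many RT1 rows are dark blue in R1 and R3, B2m to Tapbp are pale in most columns, and D1 and D6 are blue in several class II rows.

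The clearest feature of the RT1 genes was a difference between single muscles, also between muscles of the same diet. Probe 2 of RT1-Bb read -9.20 in repletion 1 and -9.68 in repletion 3, where it was not well above background. In the other 12 muscles it read between -0.55 and 1.86. Its range of 11.55 ranked first of all 26391 probes, and its spread after diet and slide were fitted ranked second. Probe 1 of the same gene gave another picture: it read -0.96, -0.42 and 0.25 as the lowest, median and highest of 6 depletion muscles, 0.41, -0.65, 0.09 and -0.84 in repletion muscles 1 to 4, and -0.88, -0.12, 0.16 and -0.17 in control muscles 1 to 4. Repletion 1 was the highest of all 14 arrays on probe 1 and next to the lowest on probe 2. Because 2 of 4 repletion muscles were so dim, the fitted repletion minus depletion difference of probe 2 was -5.15 ± 1.92 (SE), with limma's unadjusted p at 0.0242 and its adjusted p at 0.933. That of probe 1 was 0.22 ± 0.32, with an adjusted p of 0.943.

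RT1-CE10 split the muscles in another way on its probe 2. Repletion 1, repletion 3 and depletion 1 read between -2.12 and -1.83 there. Depletion 3, 5 and 6 and control 2, 3 and 4 read between -3.19 and -2.73. Depletion 2 and 4, repletion 2 and 4 and control 1 read between -8.01 and -7.13, and all of these but control 1 were not well above background. The lowest set crosses every diet and lies 3.95 below the next array, while the other sets lie closer together. Probe 1 of RT1-CE10 read between -0.10 and 1.18 over all 14 arrays. RT1-CE10 was chosen for description after its values were seen, because its probe 2 had the third largest spread on the array after diet and slide were fitted.

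**Figure D2:**
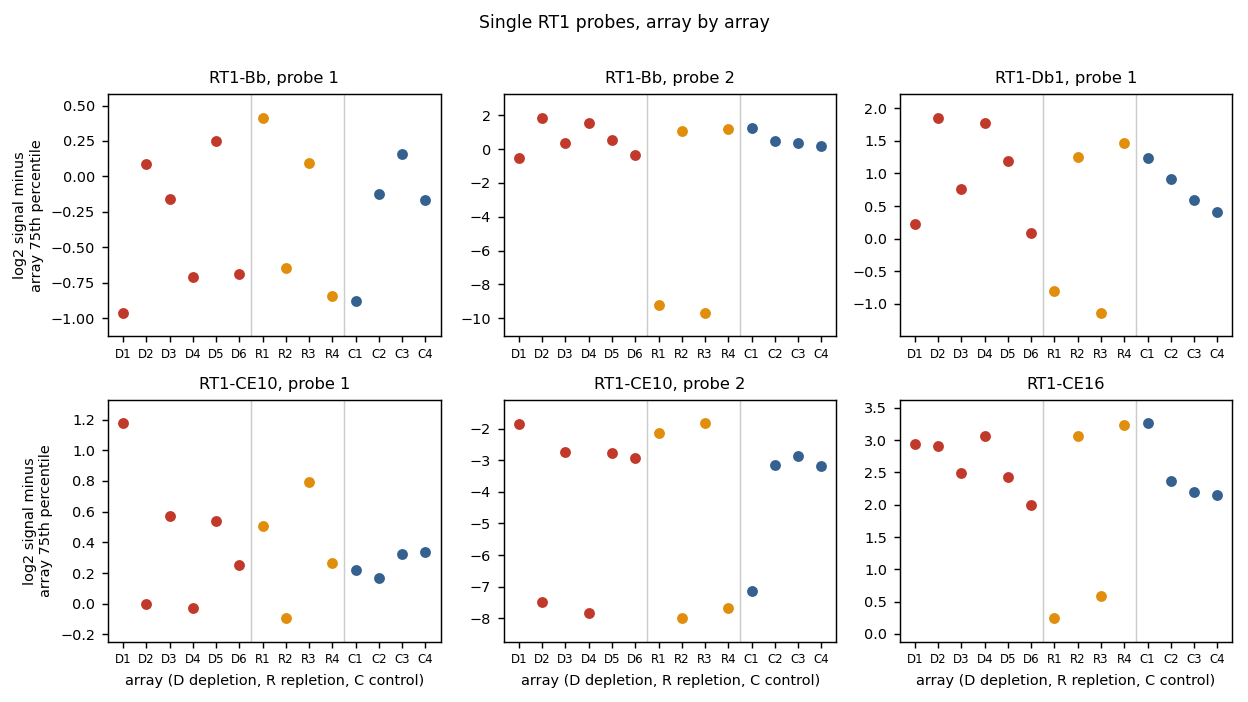
Log2 signal relative to the array's 75th percentile (vertical axis) for 6 RT1 probes on each array (horizontal axis, D depletion, R repletion, C control); each panel has its own scale. R1 and R3 stand at -9.20 and -9.68 on RT1-Bb probe 2, and D2, D4, R2, R4 and C1 stand at the bottom of RT1-CE10 probe 2.

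These array sets returned on other RT1 probes. Repletion 1 and 3 were the 2 lowest of 14 arrays on 19 of 53 RT1 probes (35.8%), against 88 of all 26391 probes (0.333%). By class this held for 16 of 44 class I probes (36.4%), 3 of 10 class II and Cd74 probes (30%) and 2 of 10 class I supply probes (20%). The counts of RT1 probes and of class II and Cd74 probes include probe 2 of RT1-Bb, off which this pair was read. The supply genes were Tap1 and Tapbp, both with probes on chromosome 20. Repletion 1 and 3 were the 2 highest arrays on 0 of 53 RT1 probes and on 80 of all probes (0.303%). Between the first and last RT1 probe on chromosome 20 lay 135 kept probes of other names, and on 2 of these repletion 1 and 3 were the 2 lowest, Tap1 being 1 of them. The 5 muscles at the bottom of RT1-CE10 probe 2 were also the 5 lowest on probes of RT1-A2, RT1-CE12 and RT1-N1. The same 5 were the 5 highest on probe 2 of RT1-Bb, on RT1-CE15 and on probe 1 of RT1-Db1. With RT1-CE10 probe 2 itself, this made 4 RT1 probes with these 5 arrays lowest (7.55%), against 8 of all probes (0.0303%). It made 3 with them highest (5.66%), against 7 of all probes (0.0265%). Class I probes can hold signal of near-identical copies, so the same signal can be counted on several RT1 probes. RT1-CE14 and RT1-Cl, a pair of similar probes, both had repletion 1 and 3 lowest. The sets were read off single probes, so these shares describe the arrays and carry no test. What sets the arrays apart was not tested.

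The RT1 chains varied more between muscles than their partners. Among probes with a mean level above -4, the residual spread exceeded 0.5 (SD on the log2 scale) for 18 of 31 class I probes (58.1%), 3 of 8 class II probes (37.5%) and 0 of 11 probes of the other members. Over all probes above that level it was 7.04%. The median residual SD was 0.53 for class I probes, 0.43 for class II probes and 0.24 for the other members, against 0.20 for all probes.

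Class I heavy chains are the largest group of members and carry the peptide groove. RT1-A1, a classical class I gene of high signal that falls outside the rule for named genes and was added after its values were seen, read 4.12, 4.26 and 4.78 as the lowest, median and highest of 6 depletion muscles. It read 3.44, 4.21, 3.78 and 4.66 in repletion muscles 1 to 4, and 4.56, 4.06, 3.88 and 4.07 in control muscles 1 to 4. The 3 diets overlapped, and repletion 1 and 3 were the 2 lowest arrays.

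RT1-CE16, a class I chain of the C/E region, read 2.00, 2.70 and 3.06 as the lowest, median and highest of 6 depletion muscles. It read 0.24, 3.06, 0.59 and 3.24 in repletion muscles 1 to 4. In control muscles 1 to 4 it read 3.26, 2.37, 2.20 and 2.15. Repletion 1 and 3 thus lay below every other muscle, while repletion 2 and 4 were among the highest. RT1-CE3 read -2.09, -1.32 and -1.1 in depletion muscles (lowest, median, highest), -3.32, -0.95, -2.99 and -0.91 in repletion muscles, and -0.75, -1.56, -1.91 and -1.63 in control muscles. RT1-CE15 read -3.02, -2.31 and -2.15 in depletion muscles, -4.23, -2.04, -3.90 and -1.95 in repletion muscles, and -1.76, -2.58, -2.72 and -2.71 in control muscles. RT1-CE14 read 1.18, 1.52 and 1.89 in depletion muscles, 0.12, 1.59, 0.24 and 2.16 in repletion muscles, and 2.02, 1.29, 0.92 and 1.31 in control muscles. On all 3, as on RT1-CE16, repletion 1 and 3 were the 2 lowest muscles.

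RT1-CE4 read -0.79, -0.40 and 0.08 in depletion muscles (lowest, median, highest), -1.93, -0.25, -1.94 and 0.15 in repletion muscles 1 to 4, and 0.19, -0.78, -0.76 and -1.01 in control muscles. RT1-CE11 read -0.86, 0.24 and 0.77 in depletion muscles, -1.17, 0.19, -1.69 and 0.65 in repletion muscles, and 0.40, -0.64, 0.17 and -0.42 in control muscles. RT1-Cl, another class I chain, read -0.01, 1.21 and 1.70 in depletion muscles, -1.07, 0.96, -1.02 and 1.52 in repletion muscles, and 1.42, -0.36, 0.80 and -0.37 in control muscles. In RT1-CE4, RT1-CE11 and RT1-Cl the control muscles were themselves spread over more than 1 log2 unit. RT1-T24-1 read 0.43, 0.82 and 1.27 in depletion muscles, -0.34, 1.03, -0.07 and 1.17 in repletion muscles, and 1.1, 0.43, 0.66 and 0.29 in control muscles. On the probe of each of these 4 genes repletion 1 and 3 were the lowest muscles and the diets overlapped. On the other RT1-T24-1 probe they were not the lowest muscles. Its repletion minus depletion difference was 0.31 ± 0.32 (SE), against -0.48 ± 0.32 on the probe described.

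The RT1-M genes are nonclassical class I genes. RT1-M6-1 read 1.84, 2.00 and 2.82 in depletion muscles (lowest, median, highest), 1.81, 1.94, 1.88 and 2.10 in repletion muscles 1 to 4, and 2.34, 1.86, 1.92 and 1.92 in control muscles. This probe shares a stretch of bases with probes of RT1-CE5 and RT1-S2, so whether its level is that of RT1-M6-1 is uncertain. The other RT1-M6-1 probe had a mean level of -6.99, against 2.05, and was not well above background on 5 of 14 arrays. Its depletion minus control difference was -0.845 ± 0.374 (SE), with limma's unadjusted p at 0.0492 and its adjusted p at 0.832. The mean of both probes turned the sign of the depletion minus control difference of RT1-M6-1. RT1-M1-5 was dim, with -6.08, -5.32 and -4.58 in depletion muscles, -5.99, -4.47, -5.42 and -5.52 in repletion muscles, and -5.82, -5.84, -4.49 and -3.81 in control muscles. RT1-M10-1, of a family known in the mouse from the vomeronasal organ, was well above background on 9 of 14 arrays. It read -7.88, -6.04 and -4.47 in depletion muscles, -7.54, -4.38, -5.18 and -6.18 in repletion muscles, and -8.05, -9.04, -4.63 and -6.68 in control muscles. None of the 3 genes parted the diets. RT1-M1-4 did not pass the filter on dim probes.

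The depletion diet was compared with the control diet to ask whether lack of vitamin D went with a change of antigen presentation genes in muscle. No member was called, and no probe of the 26391 was (percent called 0, with 0.832 the smallest adjusted p). An unadjusted p under 0.05 was found for 3 of 53 members, against 4.83% of all probes, which is near that background. The immunoproteasome subunit Psmb9 and the transporter subunit Tap2 were higher, as were 2.14% of all probes at that p. RT1-M1-5 was lower, as were 2.69%. The RT1-M1-5 difference was -0.42 ± 0.17 (SE), and -0.15 without control 4, a fit that also loses depletion 5. It was -0.25, -0.09 and -1.18 within slides 1, 2 and 4, and -0.09 on the other RT1-M1-5 probe. By sign, 39 of 53 members were higher and 14 lower, with a median difference of 0.13 on the log2 scale, beside -0.02 over all 17457 genes. Class I chains had 27 of 34 higher (median 0.16), class I supply genes 8 of 10 (median 0.14) and class II chains 3 of 7 (median -0.01).

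Depletion 1, the muscle with conflicting labels, weighed on the class I side of this comparison. It was the highest of 14 arrays on 12 of 44 class I probes (27.3%) and 6 of 10 class I supply probes (60%), against 14.9% of all probes. Without it, 13 of 34 class I chains were higher and the class I median was -0.03. The supply genes then had 8 of 10 higher with a median of 0.04, and the class II median was 0.22 with 5 of 7 higher. Within single slides, the class I median was 0.45 on slide 1, which holds depletion 1, 0.15 on slide 2 and 0.24 on slide 4.

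**Figure D3:**
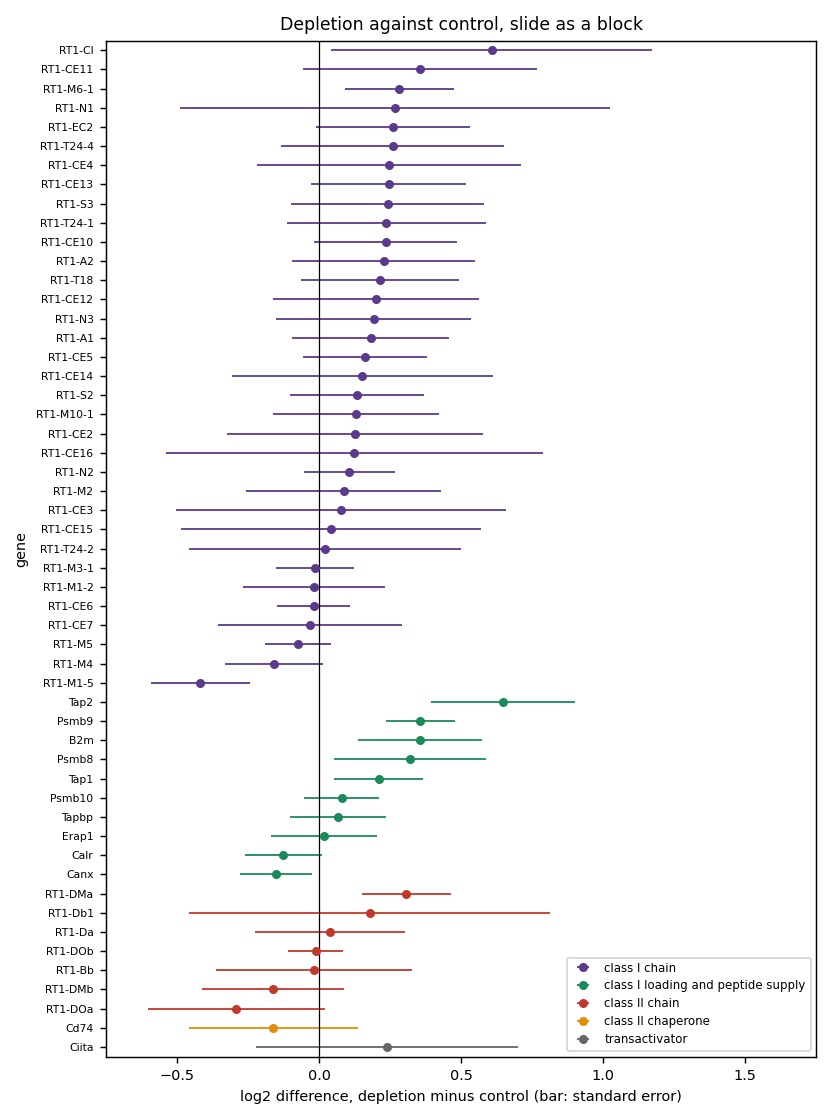
Log2 difference of each of the 53 members, depletion minus control (horizontal axis), with its standard error as a bar and colour for the class. Most class I chains and supply genes lie right of 0, Tap2 and Psmb9 lie farthest from 0 among supply genes, and the class II genes lie on both sides.

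Psmb9 is 1 of the 3 catalytic subunits that turn the proteasome into the immunoproteasome. It read -0.70, -0.28 and -0.09 as the lowest, median and highest of 6 depletion muscles, -0.48, -0.41, -0.26 and -0.45 in repletion muscles 1 to 4, and -0.61, -0.59, -0.78 and -0.53 in control muscles 1 to 4. All repletion muscles and 5 of 6 depletion muscles lay above all control muscles, and depletion 6 lay among the control muscles. The depletion minus control difference was 0.36 ± 0.12 (SE), with limma's unadjusted p at 0.0154 and its adjusted p at 0.832. Repletion minus control was 0.33 ± 0.13, with an unadjusted p of 0.0317 and an adjusted p of 1. The depletion minus control value was 0.51, 0.49 and 0.31 within slides 1, 2 and 4, and 0.26 without depletion 1.

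Tap2 is a subunit of the peptide transporter. Its level was -0.76, -0.47 and -0.12 in depletion muscles (lowest, median, highest), -0.87, -0.56, -1.01 and -0.23 in repletion muscles, and -1.53, -0.48, -1.39 and -0.77 in control muscles. The diets overlapped, and control 1 and 3 were the lowest 2 muscles. Depletion minus control was 0.65 ± 0.25 (SE), with limma's unadjusted p at 0.03 and its adjusted p at 0.832. It lay between 0.47 and 0.84 when single arrays were left out. Tap1, the other subunit, read -3.67, -3.30 and -2.95 in depletion muscles, -3.73, -3.18, -3.92 and -3.46 in repletion muscles, and -3.47, -3.54, -2.97 and -3.41 in control muscles, with repletion 1 and 3 lowest.

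B2m, the light chain of every class I molecule, was measured on 5 depletion muscles because the spot of depletion 5 was marked as an outlier by the scanner software. It read 4.73, 4.84 and 5.44 in depletion muscles (lowest, median, highest), 4.43, 4.84, 4.93 and 4.81 in repletion muscles, and 4.96, 4.5, 4.45 and 4.39 in control muscles. Depletion 1 was the highest, and control 1 lay among the depletion muscles. Depletion minus control was 0.35 ± 0.22 (SE), with an adjusted p of 0.832 by limma, and 0.02 without depletion 1. The spot of depletion 5 would have read 3.99, below all other muscles.

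Psmb8, the second immunoproteasome subunit, read -1.47, -1.01 and -0.01 in depletion muscles (lowest, median, highest), -0.79, -1.26, -0.73 and -0.93 in repletion muscles, and -1.34, -0.67, -1.15 and -1.14 in control muscles. Psmb10, the third, read 1.38, 1.63 and 1.80 in depletion muscles, 1.56, 1.77, 1.58 and 1.69 in repletion muscles, and 1.49, 1.66, 1.39 and 1.45 in control muscles. Both overlapped between diets, and depletion 1 was the highest muscle for Psmb8 and the lowest for Psmb10. Without depletion 1 the depletion minus control difference of Psmb8 was 0.02, against 0.32 with all arrays. The aminopeptidase Erap1 read 0.13, 0.26 and 0.78 in depletion muscles, 0.64, 0.18, 0.51 and 0.46 in repletion muscles, and -0.10, 0.61, 0.02 and 0.52 in control muscles. The chaperone Canx read -4.0, -3.74 and -3.14 in depletion muscles, -3.31, -3.45, -3.40 and -3.96 in repletion muscles, and -3.43, -3.27, -3.34 and -3.53 in control muscles. The diets overlapped on both genes, and depletion 1 was the highest muscle on Canx.

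**Figure D4:**
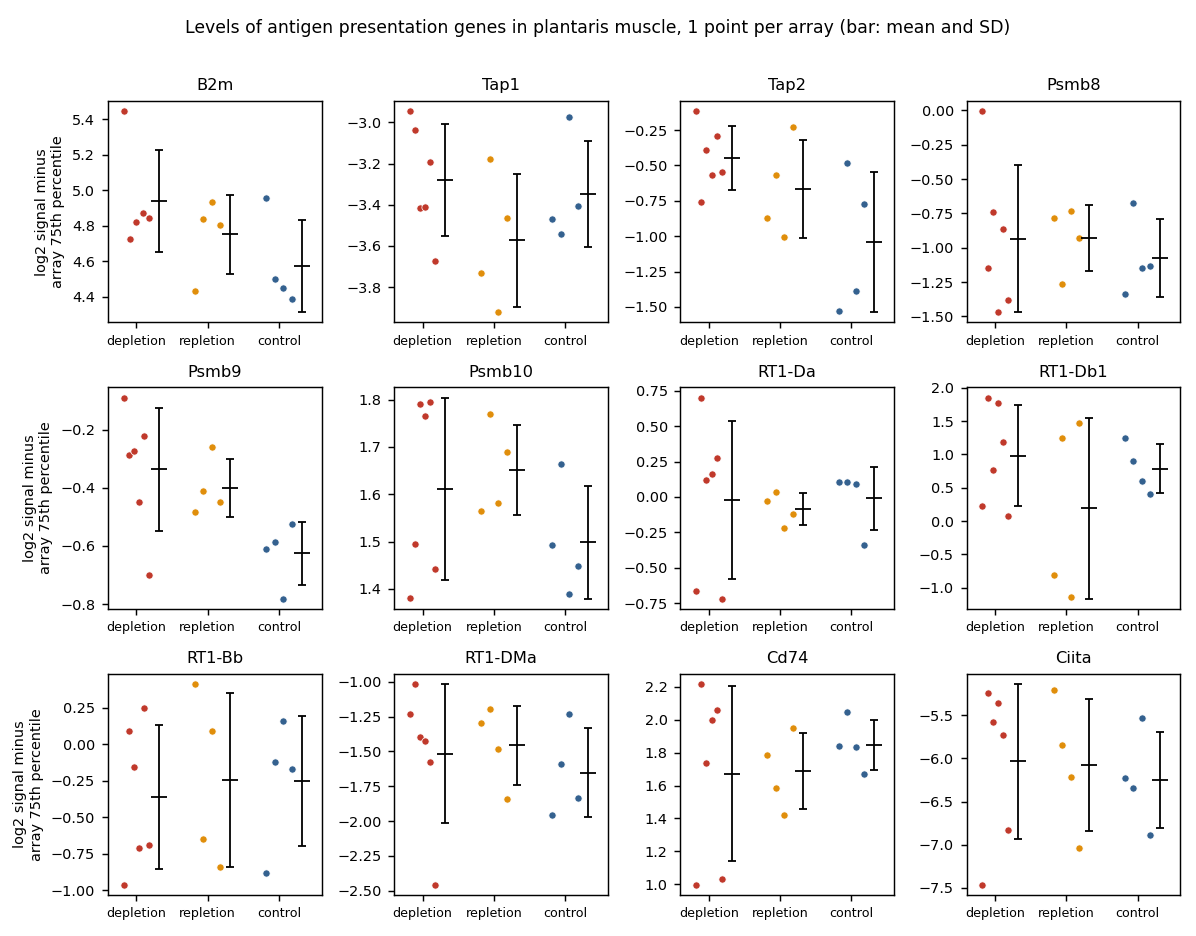
Log2 signal relative to the array's 75th percentile (vertical axis) of 12 members by diet, with 1 point per array and the mean and SD as a bar; each panel has its own scale. On Psmb9 all repletion points lie above the control points, and on RT1-Da and Cd74 the lowest 2 depletion points lie below all other points.

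On the class II side, RT1-Da and Cd74 varied more between depletion muscles than between repletion or control muscles. RT1-Da, an alpha chain, read -0.72, 0.14 and 0.70 as the lowest, median and highest of 6 depletion muscles, -0.03, 0.04, -0.22 and -0.12 in repletion muscles 1 to 4, and 0.10, 0.11, 0.09 and -0.34 in control muscles 1 to 4. The depletion minus control difference was 0.04 ± 0.26 (SE), with an adjusted p of 0.983 by limma. Its partner RT1-Db1 read 0.08, 0.97 and 1.85 in depletion muscles, -0.81, 1.24, -1.14 and 1.47 in repletion muscles, and 1.24, 0.91, 0.60 and 0.40 in control muscles. Depletion 1 and 6 were the lowest depletion muscles on both chains, and depletion 2 was the highest of all muscles on both. These RT1-Db1 values are of its probe 1. The other RT1-Db1 probe read -0.48 and -0.31 in depletion 1 and 6, its 2 lowest muscles. It read -0.08 and -0.305 in repletion 1 and 3. RT1-Ba, the alpha partner of RT1-Bb, and RT1-Ha did not pass the filter on dim probes.

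Cd74, which blocks the groove of new class II molecules, read 1.0, 1.87 and 2.22 in depletion muscles (lowest, median, highest), 1.79, 1.59, 1.42 and 1.95 in repletion muscles, and 1.84, 2.05, 1.83 and 1.67 in control muscles. Ciita read -7.46, -5.66 and -5.24 in depletion muscles, -5.21, -5.85, -6.21 and -7.04 in repletion muscles, and -6.23, -6.34, -5.53 and -6.89 in control muscles. Depletion 1 had the lowest value of all 14 muscles on both genes. Without it, the depletion minus control difference of Cd74 was 0.16, against -0.16 ± 0.30 with all arrays. That of Ciita was 0.95 without it, against 0.24 ± 0.46 with all arrays, and was not called in either fit. Depletion 1 and 6 were the 2 lowest arrays on 3 of 10 class II and Cd74 probes (30%), against 2.16% of all probes. Depletion 2 was the highest on 6 of the 10 (60%), against 12.7% of all probes.

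RT1-DMa and RT1-DMb form the molecule that exchanges peptides on class II. RT1-DMa read -2.46, -1.41 and -1.01 in depletion muscles (lowest, median, highest), -1.30, -1.20, -1.48 and -1.84 in repletion muscles, and -1.95, -1.59, -1.23 and -1.84 in control muscles. Depletion minus control was 0.31 ± 0.16 (SE) and repletion minus control 0.37 ± 0.17, with adjusted p at 0.832 and 1 by limma. RT1-DMb read -1.34, -0.77 and -0.34 in depletion muscles, -1.47, -0.56, -1.41 and -0.33 in repletion muscles, and -0.75, -0.68, -0.65 and -0.76 in control muscles. The 4 control muscles lay close together on RT1-DMb, while repletion 1 and 3 were the 2 lowest of all. RT1-DOa and RT1-DOb, which restrain that exchange, differed between depletion and control muscles by -0.29 and -0.01, and RT1-DOa was well above background on only 4 arrays.

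In bulk muscle, fewer cells of a type and less RNA per cell cannot be told apart. For cells that carry class II, the array score of a marker list is the mean over its genes of the difference from each gene's mean. The macrophage list (10 of 10 genes measured) scored between -0.52 and 0.47 in depletion muscles, -0.01 and 0.20 in repletion muscles, and -0.27 and -0.01 in control muscles. Depletion 6 had the lowest macrophage score and depletion 2 the highest, as on RT1-Da. Depletion 3 scored -0.45 and depletion 1 scored 0.27, although depletion 1 was low on class II. The B cell list (4 of 7 genes measured, Ms4a1, Cd79a and Cr2 not) scored between -0.41 and 0.28 in depletion muscles, -0.42 and 0.29 in repletion muscles, and -0.25 and 0.40 in control muscles. Depletion 1 and 6 scored -0.41 and -0.39 on it, and repletion 3 scored -0.42. The dendritic cell list (7 of 8 genes, Cd209a not) scored between -0.36 and 0.46 in depletion muscles, -0.66 and 0.21 in repletion muscles, and -0.24 and 0.46 in control muscles. On this list depletion 1 and 6 scored -0.03 and -0.36. The T and NK cell list (7 of 8 genes, Cd3e not) scored between -0.53 and 0.57 in depletion muscles, -0.04 and 0.15 in repletion muscles, and -0.09 and 0.18 in control muscles. Here depletion 1 and 6 scored -0.06 and -0.53. The part of these cells in the class II values was not tested.

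The repletion diet was compared with the depletion diet to ask whether giving vitamin D back went with a difference in the same genes. No member and no probe was called (percent called 0, with 0.933 the smallest adjusted p). An unadjusted p under 0.05 was found for 1 of 53 members, RT1-Cl, against 3.47% of all probes (2.51% higher, 0.966% lower). It was lower in repletion muscles by -1.20 ± 0.52 (SE) on the log2 scale, with limma's unadjusted p at 0.0447. By sign, 26 of 34 class I chains were lower, with a median of -0.20 beside 0.04 over all genes. Without depletion 1, the class I median was -0.11 with 24 of 34 lower, and RT1-Cl differed by -0.96 with limma's unadjusted p at 0.119 and no adjusted call. With all arrays, class II chains had 4 of 7 lower (median -0.01) and supply genes 5 of 10 (median near 0).

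Repletion 1 and 3 weighed on the class I side of that comparison. They were picked for their low values on RT1 probes, so higher class I values without them follow in part from that choice. Without them, 22 of 34 class I chains were higher in repletion muscles and the class I median was 0.17. RT1-Cl was then -0.19 ± 0.62 (SE). RT1-CE16 was 0.74 ± 0.35, against -1.0 ± 0.61 with all arrays. RT1-CE3 was 0.81 ± 0.30, against -0.71 ± 0.53. RT1-Db1, on the class II side, was 0.56 ± 0.58, against -0.87 ± 0.58. These are values of its probe 1. The other RT1-Db1 probe differed by -0.07 ± 0.27 with all arrays. RT1-N1, on which repletion 1 and 3 were the highest repletion muscles, was -1.78 ± 0.74, against -0.20 ± 0.69. With these 2 muscles left out, 6 members stood at an unadjusted p under 0.05 against 3.08% of all probes in that fit, and none was called (lowest adjusted p 1). Within slides, the class I median was -0.96 on slide 1 and -0.31 on slide 3, which hold repletion 1 and 3, and 0.02 on slide 2 and 0.42 on slide 5.

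**Figure D5:**
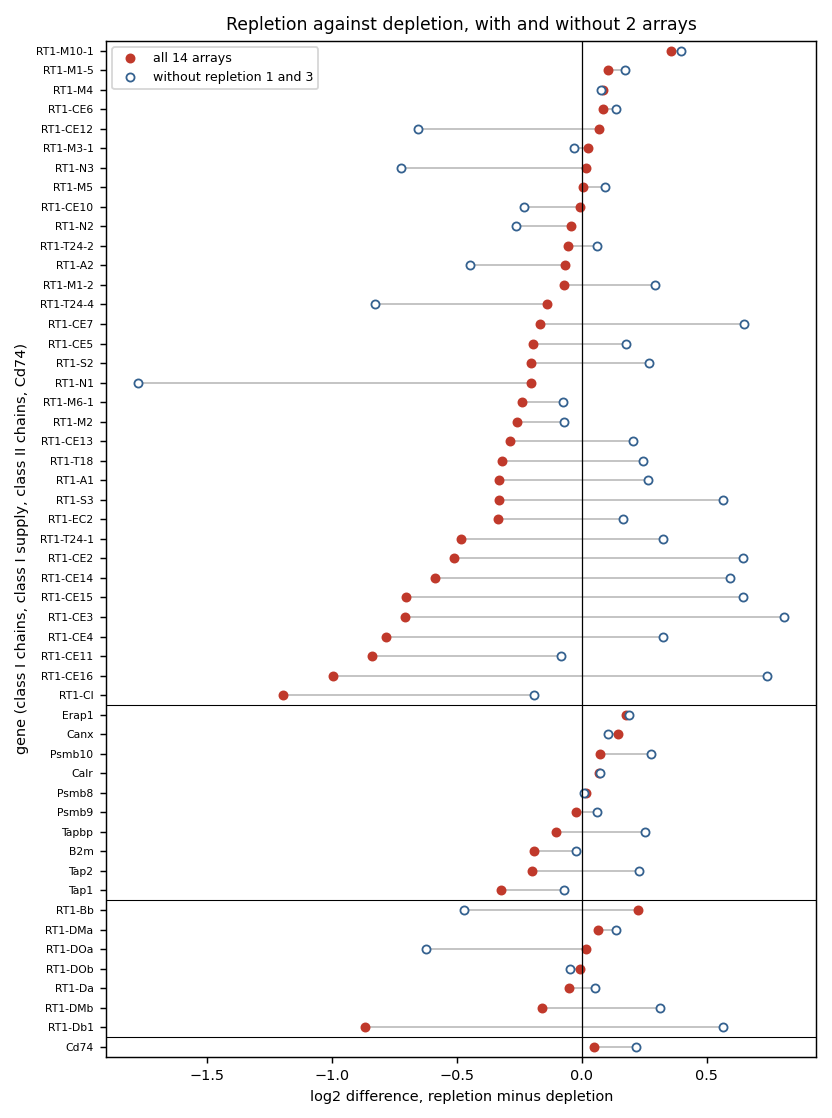
Log2 difference, repletion minus depletion (horizontal axis), of each member but Ciita, with black lines between the groups, with all 14 arrays (filled) and without repletion 1 and 3 (open). Most filled class I points lie left of 0 and most open ones right of 0.

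The repletion diet was also compared with the control diet. No member and no probe was called (percent called 0, with 1 the smallest adjusted p). An unadjusted p under 0.05 was found for 1 of 53 members, Psmb9, which was higher, against 1.99% of all probes (1.3% higher, 0.69% lower). Class I chains had 23 of 34 lower with a median of -0.08, class II chains 5 of 7 lower with a median of -0.02 and supply genes 6 of 10 higher with a median of 0.16, beside 0.02 over all genes. Without repletion 1 and 3 the class I median was 0.38 with 23 of 34 higher. In that fit 12 members stood at an unadjusted p under 0.05, against 3.41% of all probes, none of them called. Repletion 1 and 3 were left out for their low RT1 values, so this count is no independent sign of a difference. Depletion and repletion were set against the same control muscles, so the likeness of Psmb9 in both comparisons rests on shared values.

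Other genes of the pathway were taken from lists chosen with earlier results of these data known, and none of them was called. Of 19 interferon response genes, 17 were higher in depletion than in control muscles (median 0.33), beside 8072 of all 17457 genes. In repletion against control muscles 18 were higher (median 0.58), beside 9507 of the 17457. The score of this list was 0.88 in depletion 5, against -0.26 to 0.19 in the other depletion muscles, 0.28 at most in repletion muscles, and -0.43 to 0.03 in control muscles. Without depletion 5, 16 were higher in depletion than in control muscles (median 0.22). Depletion 5 and control 4 are the only arrays of their slide, so this fit also loses control 4. Control 4 had the highest score of the control muscles, so the change is not that of depletion 5 alone. In depletion minus control with all arrays 3 stood at an unadjusted p under 0.05 by limma, all higher, as were 2.14% of all probes. In repletion minus control 7 did, all higher, as were 1.3% of all probes. The list was chosen with results known, so these counts are no test. Gbp2, a guanylate-binding protein, differed by 0.39 ± 0.17 (SE) in depletion minus control and by 0.58 ± 0.19 in repletion minus control, with adjusted p at 0.832 and 1 by limma. Both comparisons share the control muscles. Of 10 macrophage genes, 9 were higher in depletion than in control muscles (median 0.40) and 8 in repletion than in control muscles (median 0.44). Without depletion 1 the depletion minus control median was 0.60 for the interferon response and 0.24 for the macrophage genes. In depletion minus control, the median was 0.06 for 10 genes of the interferon gamma axis and 0.04 for 10 factors of MHC promoters.

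Of 11 further peptide loading partners, 6 were higher in depletion than in control muscles (median 0.05). The 10 constitutive proteasome subunits and activators had 5 higher (median 0.01), beside 8 of 10 for the class I supply genes. Of 7 genes of class II peptide processing, 5 were higher (median 0.23), with the thiol reductase Ifi30 at 0.37 ± 0.16 (SE) and an adjusted p of 0.832 by limma. The 3 measured blood genes had a median of 0.89 (0.37 without depletion 1), and their score was 1.63 in depletion 1, against at most 0.44 in the other muscles. Depletion 1 is also the muscle highest on 6 of 10 class I supply probes. The part of blood in those values was not tested, and Hbb, the globin of red cells, differed by 0.84 ± 0.35 with an adjusted p of 0.832.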

How the data were processed

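Total RNA of 14 rat plantaris muscles was hybridised in 1 colour (Cy3) to Agilent arrays. Per the file headers, the deposited scanner files hold spot intensity and flags (well above background, outlier, saturated) from Agilent Feature Extraction 11.5.1.1. The processed signal is an intensity that the scanner software corrected for background within each array. The authors' deposited log2 values (limma, per the submitters' processing notes, version not given in the sources used here) were an alternative: their differences between arrays correlated at 0.761 to 0.837 with the scanner values. Their centring and scaling stay unknown, and their array medians were 8.42 to 8.49.

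Control spots and outlier-marked spots were left out, spots of a probe averaged, and log2 intensity set relative to the array's 75th percentile. A probe stayed in the fit if at least 4 arrays showed it well above background and each diet had at least 2 values. The gene's brightest probe stood for it. The model was limma 3.58.1 in R 4.3.3 with diet and slide over all 14 arrays, with residual df of 7 and Benjamini-Hochberg adjustment. On simulated data, 61.5%, 65.5% and 40% of planted changes of 1 log2 unit were called in depletion minus control, repletion minus depletion and repletion minus control (200 planted of 26391 probes). Of planted changes of 0.585 log2 units, 0%, 10.5% and 0% were called in the same comparisons. Differences of that size or smaller would thus mostly not be called. No such share was taken for class I probes alone. Above a level of -4 their median residual SD was 0.53, against 0.20 for all probes, so fewer of their changes may be called.

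Members and lists were chosen with earlier results of these data known. Values are given for each member of a short list of central genes (B2m, Cd74, Tap1, Tap2, Ciita, the immunoproteasome subunits, RT1-Ba, RT1-Bb, RT1-Da, RT1-Db1, of which RT1-Ba did not pass the filter and has none), each called member and the 5 further members of smallest p in each comparison. Deviations of arrays with the same replicate number correlated at -0.49 to 0.717, with negative pairs for replicates 2 and 4, so the numbers were not taken to pair muscles. There were 0 sample columns left unused. The number of arrays limits the precision.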

Additional observations from a re-analysis of the deposited data

Results flagged for a closer look

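In 6 of 78 groups of 4 to 6 muscles, 1 muscle lay far from the rest of its diet by Dixon's ratio, and chance gives about 1 in 20 such groups. B2m read 5.44 in depletion 1, with the next depletion muscle at 4.87. RT1-M6-1 read 2.34 in control 1, with the next control muscle at 1.93. RT1-CE15 read -1.76 in control 1, with the next at -2.58. RT1-Da read -0.34 in control 4, with the next at 0.09. RT1-CE3 read -2.09 in depletion 6, with the next at -1.40. Erap1 read 0.78 in depletion 3, with the next at 0.34.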

How the results depend on the processing

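No member and no probe was called under any alternative run. The lowest adjusted p for depletion minus control was 0.121, in the fit of only these 2 diets. The count of probes at an unadjusted p under 0.05 moved by over 1.5 times in several settings. For depletion minus control, 1275 probes became 807 with normexp, 782 with depletion 1 counted as repletion, 2084 without repletion 1 and 3, and 801 to 2224 with single arrays left out. For repletion minus depletion, 917 became 380 without the slide block, 331 with normexp, 459 with the replicate block and 578 to 1749 with single arrays left out. For repletion minus control, 524 became 225 without the slide block, 237 with normexp, 295 with the replicate block, 905 with only these diets fitted, 899 without repletion 1 and 3 and 463 to 1018 with single arrays left out. With normexp the median over all probes shifted to -0.14 for depletion minus control and to -0.11 for repletion minus control. With the replicate block in place of the slide, the class I medians were 0.19, -0.24 and -0.10 for depletion minus control, repletion minus depletion and repletion minus control, and 1 difference larger than its standard error turned sign: RT1-M10-1, repletion minus depletion, at -0.16. When single arrays were left out, the class I medians ranged from -0.03 to 0.27, from -0.37 to -0.05 and from -0.20 to 0.16 in that order, and the class II medians from -0.17 to 0.22, from -0.09 to 0.09 and from -0.16 to 0.09. Depletion 5 is the sole partner of control 4 on its slide, and depletion 6 of repletion 4, so leaving out either of a pair gives the same fit.

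Within slide 1 the class I median was 0.45, -0.96 and -0.60, and within slide 5 repletion minus depletion gave 0.42. The class II median of depletion minus control was -0.63 within slide 1 and 0.32 within slide 2, and that of repletion minus depletion was -0.61 within slide 2 and 0.59 within slide 5. The fit without repletion 1 and 3 was chosen after seeing the data. It gave class I medians of 0.17 for repletion minus depletion and 0.38 for repletion minus control. It turned repletion minus depletion of RT1-Db1 (0.56), RT1-CE4 (0.33), RT1-CE16 (0.74), RT1-T24-1 (0.33), RT1-CE15 (0.65), RT1-CE3 (0.81) and RT1-CE14 (0.59). It also turned repletion minus control of RT1-CE11 (0.33), RT1-CE4 (0.68), RT1-CE16 (1.02), RT1-CE15 (0.82) and RT1-DMb (0.14). Without repletion 1 alone, repletion minus control turned for RT1-CE4 (0.12), RT1-CE16 (0.11) and RT1-CE15 (0.13), whose lowest values with single arrays left out were -0.90, -1.46 and -1.11. The mean of a gene's probes turned RT1-M6-1, depletion minus control (-0.28), and RT1-M1-5, repletion minus control (0.15), and normexp turned RT1-M10-1, repletion minus control (-0.16). The cause of these moves was not tested beyond the arrays and probes named.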
